A study of Mus musculus with 15 samples.

Results

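The genes described here encode collagens that do not build the thick banded fibrils or the basement membrane: the type VI chains Col6a1, Col6a2 and Col6a3, the fibril-associated collagens Col9a1, Col12a1, Col16a1 and Col19a1, and the network collagens Col8a2 and Col10a1. These 9 genes were chosen by name and collagen class, not by their values. A value was found for 8 of them, among 13513 named genes with a value; Col12a1 was not analysed here. RNA was measured on 15 Affymetrix arrays, in 3 groups of 5 samples that the series describes as biological replicates. All hearts came from wild-type C57BL/6 mice aged 8 to 12 weeks.

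EpiSC are epicardial stromal cells shaken off the surface of infarcted hearts by shear during collagenase digestion, 5 days after myocardial infarction (MI). aCF are activated cardiac fibroblasts, taken as the non-myocyte fraction of the ventricles of infarcted hearts at the same time. CF are cardiac fibroblasts, the same fraction from unstressed hearts, prepared without shear; no sham operation is named. EpiSC and aCF were isolated simultaneously, so infarction, time after it and the preparation with shear all separate them from CF. In aCF against CF these cannot be told apart. The site and the way of release separate EpiSC from the fibroblast fractions. In such cell populations, fewer cells of a type and less RNA per cell cannot be told apart.

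Collagen VI is a heterotrimer of an alpha 1, an alpha 2 and an alpha 3 chain, which assembles into beaded microfilaments that tie cells and basement membranes to the surrounding matrix. In the heart it lies in the interstitium and is made mainly by fibroblasts. Fibril-associated collagens sit on the surface of other fibrils through interrupted triple helices, and the short-chain collagens VIII and X assemble into polygonal networks.

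Values are log2 signals from which each probe set's median over all samples had been subtracted, so 0 marks a gene's own middle and levels of different genes cannot be compared. The table holds 22206 rows of values, and the identifiers and the values stand in different rows: a row's values were found 6900 rows further on, or 6903 for the identifiers of chromosomes 10 and 11. This displacement is an inference from the values that no header or label states, and every gene name below depends on it. Under it, deviations from the group means over the 15 arrays correlated at 0.79 between Col6a1 and Col6a2, 0.62 between Col6a1 and Col6a3, and 0.83 between Col6a2 and Col6a3. With the identifiers in the order deposited the same pairs gave -0.32, 0.30 and 0.24. These are descriptions over arrays that share 3 group means, and the displacement had been chosen with these data known.

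Across arrays of a group, the correlation over the 13538 rows with a named gene was 0.544 to 0.668 in EpiSC, 0.229 to 0.545 in aCF and 0.749 to 0.85 in CF. The mean of 10 heart muscle genes was -0.66 in aCF4 and -0.49 in aCF5, against 0.12 to 0.37 in the other aCF samples, so results that rest on these 2 samples are also given without them. Epicardial and mesothelial markers (9 genes) averaged 1.19 to 1.67 in EpiSC, -0.77 to 0.22 in aCF and -0.997 to -0.19 in CF. At Benjamini-Hochberg adjustment, 6 of them were higher and 1 lower in EpiSC against aCF, beside 4.61% and 5.01% of all rows. Wt1, a transcription factor of the epicardium, rose in EpiSC by 2.01 ± 0.18 (SE) against aCF (Bonferroni-adjusted p = 0.00883, limma). Tcf21 was the lower 1, at -0.98 ± 0.19 (limma, Benjamini-Hochberg-adjusted p = 0.00885). Tbx18, at 0.10 ± 0.16, and Aldh1a2, at -0.02 ± 0.14, passed neither adjustment. Because values are centred, no marker has a zero level.

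Of the 8 measured genes, the 3 type VI chains were lower in EpiSC than in both fibroblast fractions, Col16a1 was highest in aCF, and Col10a1 was highest in CF. In EpiSC against aCF, 0 genes passed Bonferroni adjustment over all 22206 rows at 0.05 (limma), beside 0.666% of all rows. There, 4 genes were lower in EpiSC at the less strict Benjamini-Hochberg (BH) adjustment (5.01% of rows), 4 were lower at an unadjusted p under 0.05 (11.9% of rows), and 4 were lower with no overlap between the groups (4.73% of rows). In aCF against CF, 1 gene was higher past Bonferroni adjustment (1.21% of rows), 1 was higher and 1 lower at BH (8.74% and 9.38% of rows), and 1 was higher with no overlap (7.88% of rows). In EpiSC against CF, 0 genes passed Bonferroni adjustment (limma; 2.91% of rows). There, 4 genes were lower in EpiSC at BH (17.7% of rows), 4 were lower at an unadjusted p under 0.05 (23.1% of rows), and 3 were lower with no overlap (11.8% of rows). The comparisons share samples and are given side by side.

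The 3 type VI chains had no overlap between EpiSC and either fibroblast fraction. Against aCF, the differences were -0.69 to -0.42 on the log2 scale, and against CF -0.52 to -0.44. All 3 chains passed BH adjustment in both comparisons, and none passed Bonferroni adjustment.

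Windows of 250 bases before the transcription start of the type VI genes are shown because all 3 chains were lower in EpiSC. They are RefSeq sequences of GRCm38.p6, written 5′ to 3′ on the gene's strand, with motif matches in capitals. Col6a1 (chr10:76726045-76726294, minus strand) holds an AP-1 motif, Col6a2 (chr10:76623405-76623654, minus strand) holds 3 GC boxes of which the last 2 overlap, and Col6a3 (chr1:90843972-90844221, minus strand) holds no match. RefSeq gives Col6a2 another start, whose window (chr10:76623631-76623880, minus strand; not printed) overlaps the first and holds a GC box 175 bases before it.
Col6a1: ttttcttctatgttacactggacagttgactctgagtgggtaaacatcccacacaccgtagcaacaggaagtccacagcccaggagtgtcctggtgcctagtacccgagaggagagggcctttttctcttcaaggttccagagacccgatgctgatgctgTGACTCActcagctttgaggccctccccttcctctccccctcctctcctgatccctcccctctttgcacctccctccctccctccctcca
Col6a2: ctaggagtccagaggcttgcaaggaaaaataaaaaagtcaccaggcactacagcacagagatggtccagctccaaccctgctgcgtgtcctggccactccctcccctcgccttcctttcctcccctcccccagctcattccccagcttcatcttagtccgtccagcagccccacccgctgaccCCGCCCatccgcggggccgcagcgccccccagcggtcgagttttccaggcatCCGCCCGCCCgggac
Col6a3: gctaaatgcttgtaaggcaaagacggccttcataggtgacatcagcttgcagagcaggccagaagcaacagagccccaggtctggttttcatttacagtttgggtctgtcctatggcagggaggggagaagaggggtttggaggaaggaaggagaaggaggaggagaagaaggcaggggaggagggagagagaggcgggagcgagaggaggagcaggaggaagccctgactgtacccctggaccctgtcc
Both strands were searched, and shares are of all 32851 such windows. The TATA box was searched as TATAAA and stands in 12.4% of windows. The AP-1 motif was searched as TGANTCA and stands in 6.75%. The GC box was searched as GGGCGG and stands in 32.7%. The CCAAT box was searched by those letters and stands in 33.8%, and the CAGA box, searched as CAGACA, in 17.1%. A match is a description of the letters and no sign of binding.

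Col6a3, whose alpha 3 chain is the longest of the trimer, read -0.54, -0.59, -0.33, -0.76 and -0.46 in EpiSC 1 to 5. It read 0.21, 0.21, 0.26, 0.05 and 0.05 in aCF 1 to 5, and 0.17, 0.00, -0.10, 0.04 and -0.18 in CF 1 to 5. Every EpiSC sample lay below every aCF and CF sample. EpiSC minus aCF was -0.69 ± 0.09 (SE), or 1.62-fold lower in EpiSC, with a 95% interval from -0.89 to -0.50 (limma, Bonferroni-adjusted p = 0.241, BH-adjusted p = 0.000882). EpiSC minus CF was -0.52 ± 0.09, or 1.44-fold lower in EpiSC (Bonferroni-adjusted p = 1, BH-adjusted p = 0.00186).

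Col6a1, encoding the alpha 1 chain, read -0.49, -0.32, -0.42, -0.59 and -0.29 in EpiSC, against 0.23, 0.13, 0.24, -0.12 and 0.03 in aCF. In CF it read 0.00, 0.06, 0.04, 0.23 and -0.25. The highest EpiSC sample stayed below the lowest CF sample by a small margin and below all aCF samples. The mean was 1.44-fold lower in EpiSC than in aCF (-0.52 ± 0.09, BH-adjusted p = 0.00501) and 1.35-fold lower than in CF (-0.44 ± 0.09, BH-adjusted p = 0.00545).

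Col6a2, encoding the alpha 2 chain, read -0.38, -0.11, -0.07, -0.42 and -0.23 in EpiSC, against 0.33, 0.28, 0.28, -0.01 and 0.00 in aCF. In CF it read 0.39, 0.23, 0.19, 0.30 and -0.06. The margin between the groups was again narrow, set by aCF4, aCF5 and CF5. The mean was 1.34-fold lower in EpiSC than in aCF (-0.42 ± 0.10, BH-adjusted p = 0.0277) and 1.37-fold lower than in CF (-0.45 ± 0.10, BH-adjusted p = 0.0066).

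Between aCF and CF, the type VI differences were 0.09 ± 0.10 for Col6a1 (95% interval -0.13 to 0.31), -0.03 ± 0.10 for Col6a2 (-0.26 to 0.19) and 0.17 ± 0.08 for Col6a3 (-0.002 to 0.34). The intervals leave room for differences of about the size of their bounds, and do not show that the groups were alike. Leaving out aCF4 and aCF5 gave 0.18 for Col6a1, 0.09 for Col6a2 and 0.24 for Col6a3. For EpiSC against aCF, the same omission gave -0.62 for Col6a1, -0.54 for Col6a2 and -0.76 for Col6a3.

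The mean of the 3 chains in each sample was -0.59 to -0.27 in EpiSC, -0.03 to 0.26 in aCF and -0.16 to 0.19 in CF. Among the aCF samples, aCF4 and aCF5 had the lowest means, -0.03 and 0.03, against 0.21 to 0.26 in the others. Fibroblast markers (10 genes) averaged -0.44 to -0.07 in EpiSC, 0.06 to 0.15 in aCF and -0.13 to -0.06 in CF. Endothelial markers (9 genes) averaged -1.01 to -0.71, -0.17 to 0.47 and 0.24 to 0.65 in EpiSC, aCF and CF. Mural markers (8 genes), which mark pericytes and smooth muscle, averaged -1.05 to -0.46, 0.43 to 0.86 and -0.85 to -0.08 in the same groups. The fibroblast and mural means join genes that moved in opposite directions between EpiSC and CF. In EpiSC against CF, 3 fibroblast markers were higher and 5 lower at BH, and 2 mural markers were higher and 5 lower (14.5% and 17.7% of all rows). In EpiSC against aCF, 6 fibroblast and 6 mural markers were lower and 0 higher (5.01% and 4.61% of all rows). Of the endothelial markers, 7 were lower and 0 higher in EpiSC against CF, and 4 and 0 against aCF, beside the same shares. In aCF against CF, 1 endothelial marker was higher and 2 were lower (8.74% and 9.38% of all rows). The part of these cell types in the type VI values was not tested.

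**Figure D1:**
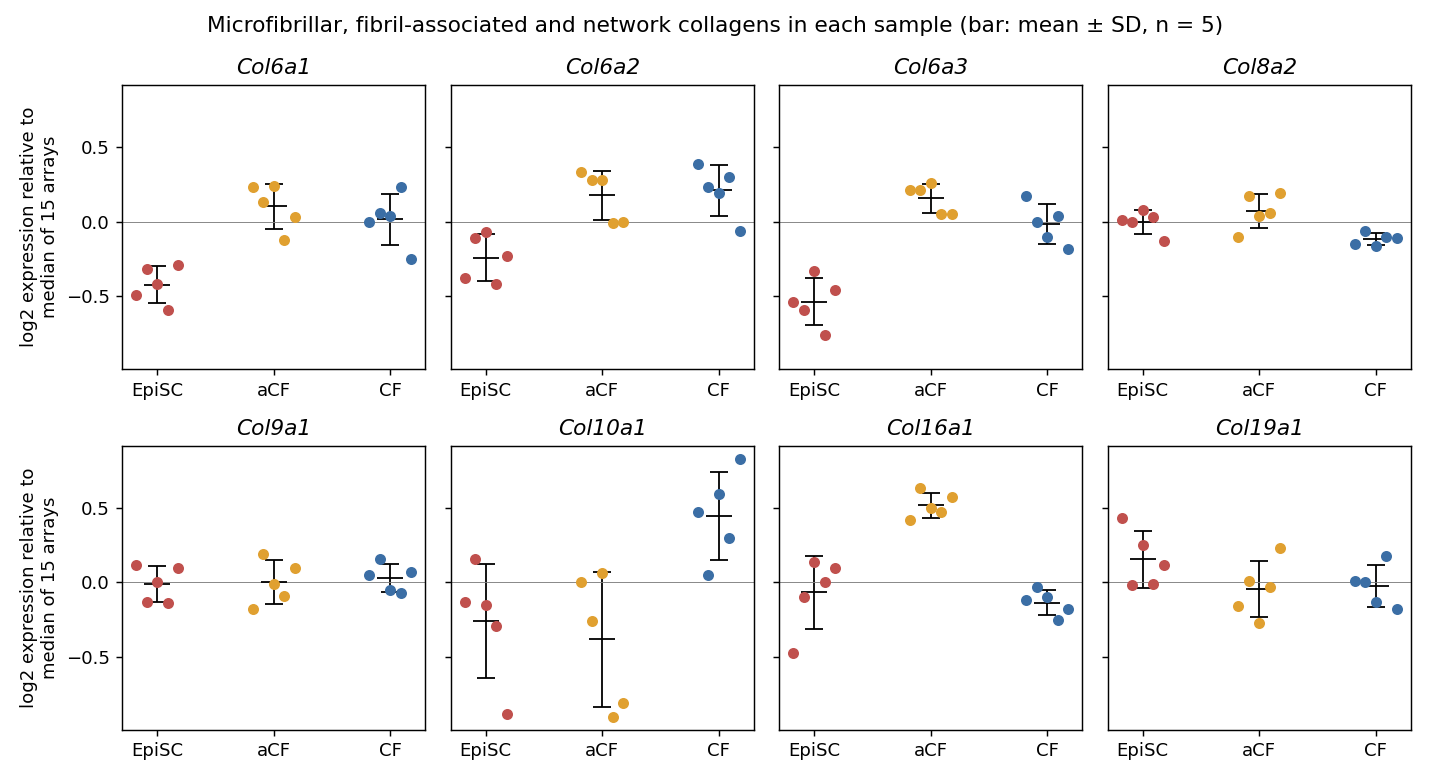
Centred log2 values (vertical axis) of the 8 measured collagens in every EpiSC, aCF and CF sample (points), with bars for the group mean ± SD (n = 5). The type VI chains lie lower in EpiSC, Col16a1 lies highest in aCF (0.42 to 0.63), and Col10a1 is spread widely in EpiSC and aCF.

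The alternative alpha chains, Col6a4, Col6a5 and Col6a6, which can take the place of alpha 3, were measured as well, and no difference from the 3 chains above was tested. Col6a5 had a median of 1.58 in EpiSC (0.32 to 2.98), 0.00 in aCF (-0.34 to 0.33) and -0.12 in CF (-0.28 to -0.05). It was 1.59 ± 0.40 higher in EpiSC than in aCF (Bonferroni-adjusted p = 1, BH-adjusted p = 0.0329) and 1.68 ± 0.39 higher than in CF (BH-adjusted p = 0.00782). Col6a6 had a median of -0.31 in EpiSC (-0.77 to 0.46), -0.22 in aCF (-1.27 to 0.21) and 1.32 in CF (1.20 to 1.60). Its difference was -1.87 ± 0.27 in aCF against CF (Bonferroni-adjusted p = 0.789, BH-adjusted p = 0.00102) and -1.64 ± 0.20 in EpiSC against CF (Bonferroni-adjusted p = 0.184, BH-adjusted p = 0.000193), the direction of the 3 chains in the second of these comparisons. Col6a4 had a median of 0.18 in EpiSC (-0.03 to 1.04), 0.01 in aCF (-0.01 to 0.18) and -0.23 in CF (-0.29 to -0.05). Its differences were 0.34 ± 0.19 in EpiSC against aCF (BH-adjusted p = 0.306), 0.25 ± 0.06 in aCF against CF (Bonferroni-adjusted p = 1, BH-adjusted p = 0.0205) and 0.59 ± 0.19 in EpiSC against CF (Bonferroni-adjusted p = 1, BH-adjusted p = 0.0341). Its aCF and EpiSC samples all lay above its CF samples.

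Col16a1, a fibril-associated collagen that binds cells through integrins, was the 1 gene of the 8 that passed the Bonferroni threshold in any comparison, and it was higher in aCF than in CF. It read 0.42, 0.63, 0.50, 0.47 and 0.57 in aCF 1 to 5, against -0.12, -0.03, -0.10, -0.25 and -0.18 in CF 1 to 5. In EpiSC it read -0.47, -0.10, 0.14, 0.00 and 0.10. All aCF samples stood above all samples of the other groups. Col16a1 rose in aCF by 0.65 ± 0.06 against CF, or 1.57-fold, with a 95% interval from 0.52 to 0.79 (limma, Bonferroni-adjusted p = 0.015, BH-adjusted p = 6.78e-05).

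The call of Col16a1 was kept in 2 of 10 omissions of a single array, with an adjusted p from 0.0316 to 0.0939 over them, and was lost without both aCF4 and aCF5 (difference 0.65, adjusted p = 0.4). It was also lost in 1 fit of all 3 groups (adjusted p = 0.207), with the replicate number as a block (adjusted p = 0.507) and with a trended, robust variance (adjusted p = 0.572). Its difference kept its size in every omission, 0.63 to 0.68. Against EpiSC, aCF was higher as well: EpiSC minus aCF was -0.58 ± 0.11, or 1.5-fold lower in EpiSC (Bonferroni-adjusted p = 1, BH-adjusted p = 0.00885). EpiSC against CF gave 0.07 ± 0.11 (95% interval -0.18 to 0.32).

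The promoter window of Col16a1 (chr4:130047590-130047839, plus strand) holds a GC box 159 bases and a CCAAT box 113 bases before the start, in capitals.
Col16a1: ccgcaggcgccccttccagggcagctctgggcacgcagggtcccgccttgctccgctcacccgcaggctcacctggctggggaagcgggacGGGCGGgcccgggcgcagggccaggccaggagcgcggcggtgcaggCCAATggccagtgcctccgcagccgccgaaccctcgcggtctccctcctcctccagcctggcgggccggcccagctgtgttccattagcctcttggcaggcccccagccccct
Its GC content was 75.6%, against a median of 52.4% over all windows.

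Among named genes, those whose values over the 15 arrays followed Col16a1 most closely were Rcn3, a calcium-binding protein of the endoplasmic reticulum (r = 0.94), Pls3, an actin-bundling plastin (0.93), and Ergic3, a protein of transport between endoplasmic reticulum and Golgi (0.93). Rcn3 ran from -0.23 to 0.15 in EpiSC, 0.23 to 0.45 in aCF and -0.17 to -0.09 in CF. For Col6a1 the closest were Ostm1 (0.93), Col6a2 (0.92) and Col6a3 (0.91); for Col6a3 they were Ostm1 (0.96), Sort1 (0.92) and Dock10 (0.92). For Col6a2 they were Poglut3 (0.96), Man1c1 (0.92) and Col6a1 (0.92). These correlations carry the differences between groups.

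Col9a1 encodes the alpha 1 chain of collagen IX, which decorates type II fibrils in cartilage. It averaged -0.01 ± 0.12 (SD, n = 5) in EpiSC, 0.00 ± 0.15 in aCF and 0.03 ± 0.09 in CF, with overlapping groups. The differences were -0.01 ± 0.09 for EpiSC against aCF (95% interval -0.21 to 0.19), -0.03 ± 0.08 for aCF against CF (-0.21 to 0.15) and -0.04 ± 0.08 for EpiSC against CF (-0.21 to 0.12). Its partner Col9a2, chosen after its values were seen, was at -0.50 ± 0.13 in EpiSC against aCF (Bonferroni-adjusted p = 1, BH-adjusted p = 0.034) and 0.33 ± 0.09 in aCF against CF (BH-adjusted p = 0.0343). Col9a3 gave -0.01 ± 0.09 and 0.01 ± 0.09 in the same comparisons.

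Col19a1, a fibril-associated collagen of basement membrane zones, averaged 0.15 ± 0.19 (SD, n = 5) in EpiSC, -0.04 ± 0.19 in aCF and -0.02 ± 0.14 in CF. The groups overlapped, and the differences were 0.20 ± 0.12 for EpiSC against aCF (95% interval -0.06 to 0.45), -0.02 ± 0.10 for aCF against CF (-0.24 to 0.20) and 0.18 ± 0.10 for EpiSC against CF (-0.05 to 0.41).

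Col8a2, a chain of the short-chain network collagen VIII, read 0.01, 0.00, 0.08, 0.03 and -0.13 in EpiSC, against -0.10, 0.17, 0.04, 0.06 and 0.19 in aCF. In CF it read -0.15, -0.06, -0.16, -0.10 and -0.11, the narrowest spread of the 3 groups. The aCF mean was 0.19 ± 0.06 above the CF mean (95% interval 0.05 to 0.33, BH-adjusted p = 0.0675), and the EpiSC mean was 0.11 ± 0.06 above it (-0.01 to 0.24). Neither passed either adjustment.

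Col10a1, the network collagen of hypertrophic cartilage, read -0.13, 0.16, -0.15, -0.29 and -0.88 in EpiSC, against 0.00, -0.26, 0.06, -0.90 and -0.81 in aCF. In CF it read 0.47, 0.05, 0.59, 0.30 and 0.83. aCF4, aCF5 and EpiSC5 were the low samples, and both groups overlapped CF at its lowest sample, CF2. aCF minus CF was -0.83 ± 0.21 (95% interval -1.30 to -0.36, Bonferroni-adjusted p = 1, BH-adjusted p = 0.0219), and -0.52 without aCF4 and aCF5. EpiSC minus CF was -0.71 ± 0.20 (-1.14 to -0.27, BH-adjusted p = 0.0193), and EpiSC against aCF gave 0.12 ± 0.24 (-0.41 to 0.65).

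Deviations of Col10a1 from the group means correlated at 0.72 with those of the heart muscle genes over the 15 arrays, and at 0.40 over the 13 arrays without aCF4 and aCF5. With the epicardial genes the correlations were 0.74 and 0.77. The heart muscle genes averaged -0.84 to -0.48 in EpiSC, -0.66 to 0.37 in aCF and 0.24 to 0.47 in CF. Cox7a1, the muscle isoform of a cytochrome c oxidase subunit, was its closest named gene over the values (r = 0.91), running from -0.57 to 0.00 in EpiSC, -1.21 to 0.46 in aCF and 0.41 to 1.09 in CF. The part of heart muscle RNA in the Col10a1 values was not tested. The window before its start (chr10:34389731-34389980, plus strand) holds a TATA box 32 bases before it, in capitals, and is 41.6% GC.
Col10a1: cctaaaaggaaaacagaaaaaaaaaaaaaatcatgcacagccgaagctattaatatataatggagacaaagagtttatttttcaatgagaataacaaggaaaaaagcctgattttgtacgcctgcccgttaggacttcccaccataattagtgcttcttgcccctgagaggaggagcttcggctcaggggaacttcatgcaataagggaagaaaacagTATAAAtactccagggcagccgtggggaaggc

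**Figure D2:**
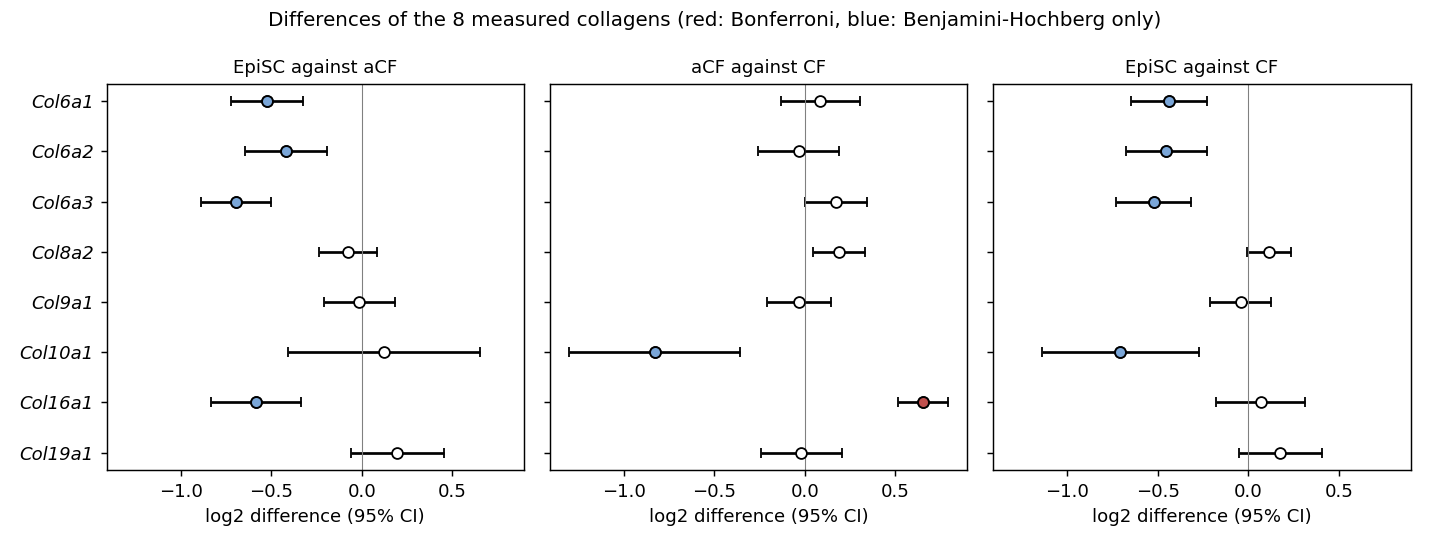
Log2 differences (horizontal axis) of the 8 measured collagens with 95% intervals, in EpiSC against aCF, aCF against CF and EpiSC against CF. Red marks the Bonferroni call (Col16a1, 0.65), blue marks genes that passed BH alone, and white marks the rest.

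Of 28 gene pairs, the 3 pairs of type VI chains had the highest correlations of deviations from the group means, 0.62 to 0.83. Without aCF4 and aCF5 these 3 pairs gave 0.72 for Col6a1 with Col6a2, 0.53 for Col6a1 with Col6a3 and 0.79 for Col6a2 with Col6a3. Over all 15 arrays the other pairs ran from -0.47 for Col10a1 with Col19a1 to 0.47 for Col9a1 with Col19a1. Without aCF4 and aCF5 they ran from -0.44 for Col9a1 with Col10a1 to 0.51 for Col6a3 with Col19a1. That upper end lies close to the 0.53 of Col6a1 with Col6a3.

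**Figure D3:**
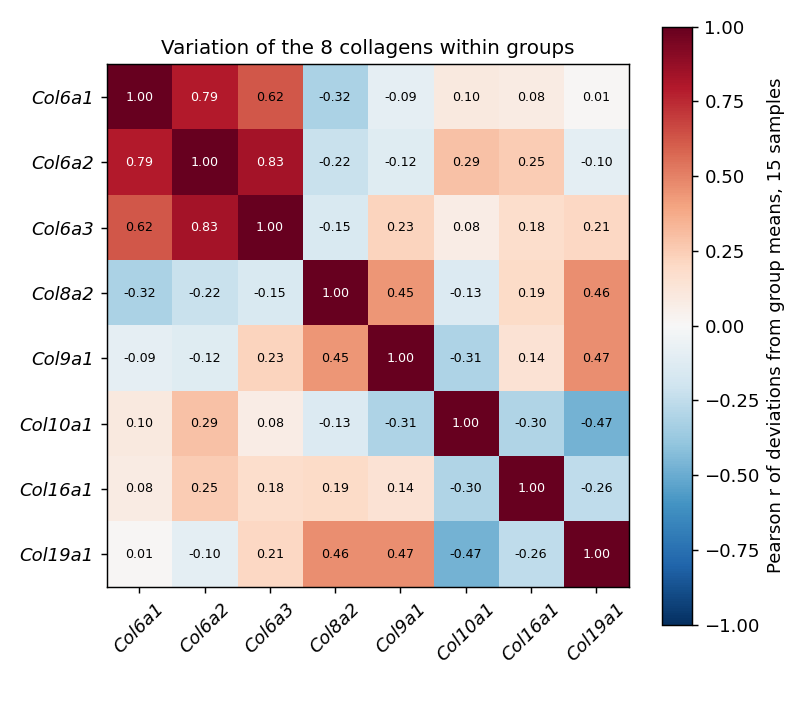
Pearson correlation of deviations from the group means over the 15 arrays, for each pair of the 8 collagens, with the value printed in each cell. The type VI chains form the block at 0.62 to 0.83, and the other pairs lie between -0.47 and 0.47.

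Other collagens were measured in the same samples. Of 9 measured fibrillar collagens, 6 rose in aCF against CF (Bonferroni, beside 1.21% of all rows). The 9 had a median difference of 1.18, beside 0.03 for the 8 genes here and -0.02 for all rows. Col1a2 rose by 1.27 ± 0.06 (adjusted p = 7.46e-06) and Col11a1 by 2.54 ± 0.16 (0.000222). In EpiSC against CF, 3 fibrillar collagens rose, beside 2.91% of all rows past Bonferroni adjustment in either direction. Among them was Col1a1, by 0.94 ± 0.08 (0.00348), while the type VI chains were lower. Against aCF, 5 of the 9 fibrillar collagens were lower in EpiSC and 1 was higher at BH, beside 5.01% and 4.61% of all rows. Their median there was -0.39, beside -0.25 for the 8 genes here and 0.01 for all rows. Of 8 basement membrane collagens, 3 fell in EpiSC against aCF and 5 against CF, beside 0.666% and 2.91% of all rows in either direction. Col4a2 was at -1.30 ± 0.09 (0.0006) in the first of these comparisons and Col15a1 at -1.65 ± 0.11 (0.000638) in the second. Of 11 other non-fibrillar collagens, 1 was higher and 2 were lower at BH in EpiSC against aCF, beside 4.61% and 5.01% of all rows. In aCF against CF, 2 were higher and 1 lower, beside 8.74% and 9.38%, and in EpiSC against CF 2 were higher and 2 lower, beside 14.5% and 17.7%. The difference between classes was not tested.

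**Figure D4:**
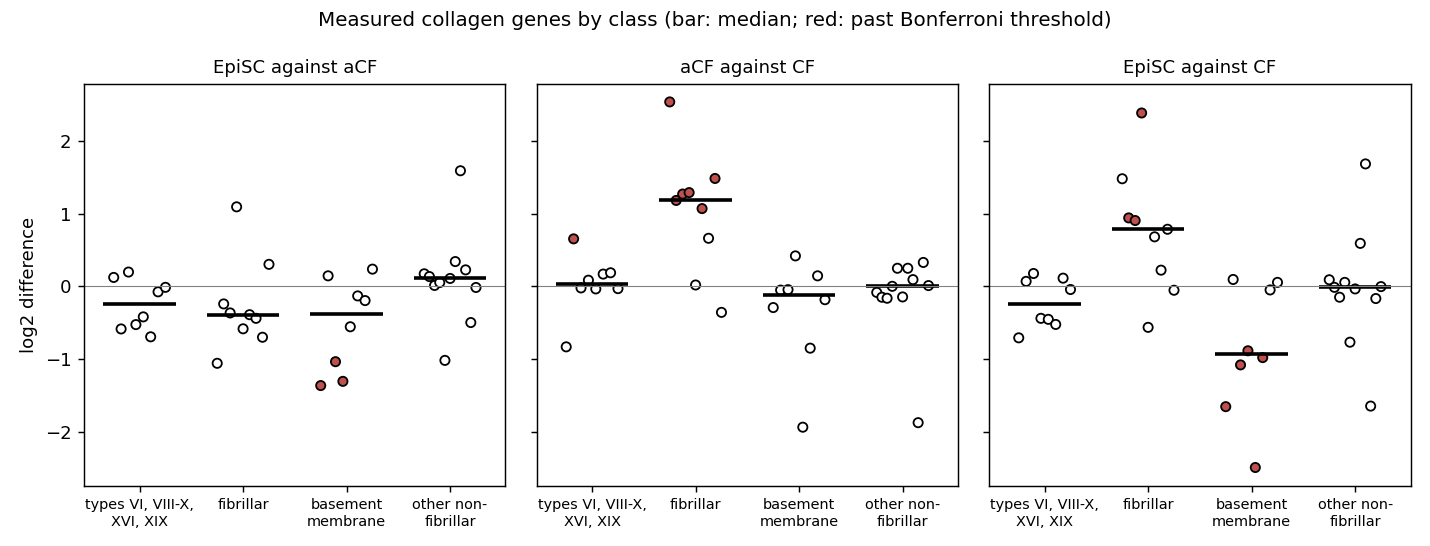
Log2 differences of collagen genes by class, with 1 point a gene, bars at class medians and red for genes past Bonferroni adjustment, for EpiSC against aCF, aCF against CF and EpiSC against CF. Fibrillar collagens have a median of 1.18 in aCF against CF, beside 0.03 for the types VI, VIII to X, XVI and XIX.

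Of 11 collagen receptors, 2 fell in EpiSC against aCF, beside 0.666% of all rows past Bonferroni adjustment in either direction. They were the integrin chain Itga11, with a difference of -2.03 ± 0.12 (adjusted p = 0.000181), and the endocytic receptor Mrc2, with -0.91 ± 0.09 (0.0317). Itga11 fell by 1.94 ± 0.10 in EpiSC against CF (3.75e-05), and Ddr2, a receptor kinase for fibrillar collagen, fell by 0.69 ± 0.06 in aCF against CF (0.00341). Of the type VI receptors, Cspg4 (NG2) was at -1.04 ± 0.25 (BH-adjusted p = 0.0286) and Antxr1 at -0.39 ± 0.07 (BH-adjusted p = 0.00513) in EpiSC against aCF. Antxr2, of the same list, was at -0.55 ± 0.22 there (BH-adjusted p = 0.153). In EpiSC against CF, Cspg4 was at -0.05 ± 0.27 (BH-adjusted p = 0.914), Antxr1 at -0.44 ± 0.07 (0.000883) and Antxr2 at -1.50 ± 0.21 (0.000436). Cspg4 was 0.988 ± 0.235 higher in aCF than in CF (BH-adjusted p = 0.0149). In the same comparison Antxr2 was at -0.946 ± 0.136 (BH-adjusted p = 0.000926) and Antxr1 at -0.048 ± 0.063 (BH-adjusted p = 0.659). These genes were chosen after their values were seen.

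Of 18 genes of collagen processing and crosslinking, 4 rose (1.21% of all rows) and 1 fell in aCF against CF. At BH, 11 were higher and 2 were lower there, beside 8.74% and 9.38% of all rows. In EpiSC against aCF, 1 rose, beside 0.666% of all rows in either direction. It was Adamts3, a procollagen N-proteinase, by 1.49 ± 0.15 (0.0271). At BH, 2 of the 18 were higher and 8 were lower in that comparison, beside 4.61% and 5.01% of all rows. The median of the 18 there was -0.16, beside 0.01 for all rows. P4ha3, a prolyl hydroxylase subunit, rose by 3.41 ± 0.15 in aCF (4.44e-06) and by 2.31 ± 0.14 in EpiSC (0.000174), both against CF. Serpinh1, the collagen chaperone, rose by 0.79 ± 0.06 in aCF (0.00151) and by 0.68 ± 0.06 in EpiSC (0.0104). Of 19 matrix partners, 8 rose in aCF against CF (1.21% of all rows), with Tnc (tenascin C) at 3.00 ± 0.10 (2.96e-07), Fn1 at 1.29 ± 0.06 (6.97e-06) and Comp at 1.64 ± 0.16 (0.0244). Fmod, a small proteoglycan of fibrils, fell by 3.14 ± 0.22 in EpiSC against aCF (0.000887).

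Of 12 genes of growth plate and cartilage, the setting in which Col9a1 and Col10a1 are best known, Acan rose by 1.64 ± 0.14 (0.00581) and Cilp by 1.35 ± 0.09 (0.000381) in aCF against CF. At BH, 1 was higher and 3 were lower in EpiSC against aCF (4.61% and 5.01% of all rows), 2 were higher and 1 lower in aCF against CF (8.74% and 9.38%), and 1 was higher and 4 were lower in EpiSC against CF (14.5% and 17.7%). Their medians were 0.03, 0.03 and 0.08 in EpiSC against aCF, aCF against CF and EpiSC against CF.

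**Figure D5:**
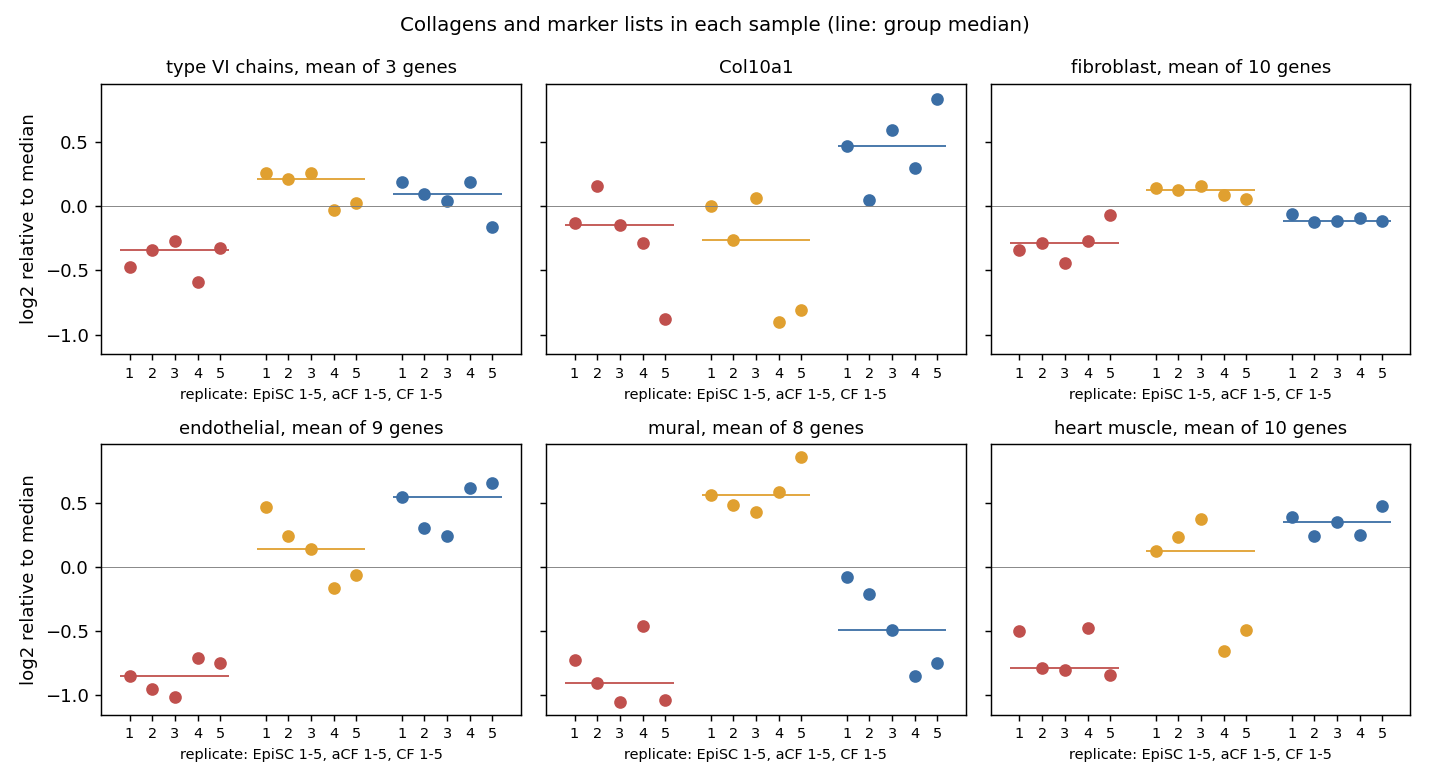
Centred log2 values (vertical axis) in every EpiSC, aCF and CF sample for the mean of the 3 type VI chains, for Col10a1 and for the means of fibroblast, endothelial, mural and heart muscle markers, with lines at group medians. Heart muscle genes are low in aCF4 (-0.66) and aCF5 (-0.49), and the type VI mean is lowest in EpiSC.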

How the data were processed

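Cells of 15 samples (5 each of EpiSC, aCF and CF) were profiled on Affymetrix arrays from 1 ng of total RNA. Per the series design text, the authors quantile-normalized probe signals, summarized probe sets with ExonRMA16 in GeneSpring GX 12.5 and subtracted each probe set's median; the deposited values are taken as log2 from their range (-4.77 to 5.52), since no source here states the base. Identifiers were joined to values by the displacement given above (15303 of 22206 rows paired, 13538 of them named). Of the probe sets annotated, 19572 have 1 symbol and 2634 none.

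Each pair of groups was fitted with limma 3.58.1 (R 4.3.3; lmFit, eBayes), two-sided, with Bonferroni adjustment over all 22206 rows at 0.05, as the design text states; the text states the first 2 comparisons, and EpiSC against CF was added. The script was tested on simulated data. All 9 genes were named. From each other list, genes past the threshold were eligible for naming, or the 2 with the lowest p where fewer passed. Genes and lists were chosen with earlier results of these data known. No depth exists for arrays, and the number of arrays limits the precision. EpiSC and aCF were isolated simultaneously, but no label says that a shared number is a shared heart. Deviations from the group means correlated at 0.019 to 0.154 between same-numbered EpiSC and aCF samples. In the other 2 comparisons they correlated at -0.022 to 0.156.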

Additional observations from a re-analysis of the deposited data

How the results depend on the processing

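Of the differences of the 8 collagens, 219 of 240 kept direction and side of the threshold over omissions of 1 array. Under other settings 141 of 160 did so, and under other pairings of identifiers 26 of 48. Part of these counts was fixed in advance. Without the extra 3 rows, Col6a3, Col8a2, Col9a1, Col16a1 and Col19a1 keep their values. Among the other settings, quantile normalization and omission of arrays alone can change a difference. Apart from Col16a1 in aCF against CF, no difference was past the threshold at the start. Probe sets past the threshold numbered 148, 340 and 647 in EpiSC against aCF, aCF against CF and EpiSC against CF. BH gave 2135, 4023 and 7157, and the replicate block 41, 94 and 166. Same-numbered samples correlated best with their own number in 4 of 5 cases in EpiSC against aCF, and in fewer in the other comparisons. A fit of all 3 groups gave 369 in the first and 1060 in the last. Trend and robust fits gave 97 and 212 in the first 2, and leaving out aCF4 and aCF5 (chosen after seeing the data) 50 and 144. Omitting 1 array gave 73 to 143, 197 to 272 and 369 to 557. Of the 8 collagens, BH called 4, 2 and 4 against 0, 1 and 0. The 3-group fit called 1 (Col6a3, adjusted p = 0.0229) in the first and 0 in the second. In aCF against CF, 0 were called with the replicate block, with trend and robust, without aCF4 and aCF5 and in the deposited order, and 0 to 1 over omissions. Col16a1 then had an adjusted p = 0.207 in the 3-group fit, 0.507 with the block and 0.572 with trend and robust.

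Omissions of arrays and quantile normalization turned the direction of these differences. In EpiSC against aCF, omissions gave -0.058 to 0.035 for Col9a1 and -0.005 to 0.280 for Col10a1, which was -0.191 without aCF4 and aCF5. In aCF against CF, omissions gave -0.102 to 0.013 for Col6a2, -0.077 to 0.016 for Col9a1 and -0.088 to 0.036 for Col19a1. Quantile normalization gave 0.035, 0.012 and 0.002 for those genes, and Col6a2 was 0.087 without aCF4 and aCF5. Other pairings of identifiers also turned differences far from 0. In the deposited order, EpiSC against aCF gave 0.174 for Col6a1, 0.060 for Col6a2, 0.054 for Col6a3, 0.044 for Col9a1 and 0.034 for Col16a1. aCF against CF gave -0.410 for Col6a3, -0.030 for Col8a2, 0.110 for Col9a1, 0.072 for Col10a1 and -0.214 for Col16a1. EpiSC against CF gave 0.360 for Col6a1, -0.556 for Col8a2, 0.154 for Col9a1, 0.216 for Col10a1, -0.180 for Col16a1 and -0.464 for Col19a1. Without the extra 3 rows, EpiSC against aCF gave 0.026 for Col6a1 and -0.024 for Col10a1, aCF against CF gave -0.330 for Col6a1, 0.094 for Col6a2 and 0.058 for Col10a1, and EpiSC against CF gave 0.034 for Col10a1. The identifiers' pairing sets which values carry a name; the cause of the other changes was not tested.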

Other observations

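Macrophage and monocyte markers (10 genes) averaged -0.20 to -0.02 in EpiSC, 0.11 to 0.41 in aCF and -0.20 to 0.05 in CF. At Benjamini-Hochberg adjustment, 4 of them were lower in EpiSC against aCF (5.01% of all rows) and 4 were higher in aCF against CF (8.74% of all rows). Their part in the collagen values was not tested.

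The closest named gene over the 15 arrays was Fgfr2 for Col8a2 (r = 0.88), Cnga1 for Col9a1 (0.81) and 9130230L23Rik for Col19a1 (0.94). By deviations from the group means, the closest was Poglut3 for Col6a2 (0.92), Vmn2r1 for Col6a3 (0.91), Tas1r3 for Col6a1 (0.83), Olfr480 for Col16a1 (0.91) and Triml1 for Col10a1 (0.88). These are the highest of 13513 genes over 15 arrays and are given as descriptions.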
